A study of Saccharomyces cerevisiae with 10 samples.

Results

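The contractile actomyosin ring and the primary septum divide a budding yeast mother cell from its daughter at the bud neck. The set described here holds 10 genes that build them, HOF1, IQG1, MYO1, MLC1, MLC2, CYK3, INN1, CHS2, BNI1 and BNR1. They were chosen by name for their place in ring assembly, actin cable formation or septum synthesis, and all 10 are among the 7252 genes of the deposited tables. Isogenic Saccharomyces cerevisiae cells were grown for 4 h in rich medium (YPD), washed and shifted to nitrogen-limited medium with 0.8 mM proline (NLIM-PRO). After 1 h the culture was sorted into low and high subpopulations, and mRNA was sequenced from 5 libraries of each. The design asks how the transcriptomes of these subpopulations differ early after the downshift.

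Low and high cells were the same strain, a MATa prototrophic version of BY4741 with a pRPL28 GFP marker, that is, the fluorescent protein sfGFP under the promoter of the ribosomal protein gene RPL28. The sort used GFP fluorescence together with side scatter, so the fractions were chosen for light scatter as well as for the marker. The study's gates were set to exclude doublets and budding cells. In a separate sort after a longer downshift, the paper reported from bud scars that high was enriched in dividing mother cells. Low there was mainly daughter cells without scars. Libraries are named as in the labels, with L for low, H for high, a replicate number and a 4-digit ending. The study left the low libraries L2_2609 and L1_2709 out of its comparison, and the comparison here used the other 3 low libraries with all 5 high libraries. For the 10 genes, values of the left-out libraries are given beside those used, and means in low are over the 3 libraries used unless stated.

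Totals were 18977794 to 23644299 counts in the 3 low libraries used, 15879779 and 21503922 in the 2 left out and 22167864 to 27752702 in the high libraries. The low libraries were less complex than these totals show. In the 5 low libraries 983 to 1552 genes had 0 counts and the 5th percentile of the non-zero counts was 48 to 105, against 383 to 511 genes and a 5th percentile of 9 to 12 counts in the high libraries. L1_2709 was at the extreme for both. The sfGFP transcript overlapped between the groups, at 121 to 201 CPM (counts scaled to library size) in the low libraries used, 188 and 292 CPM in those left out and 69.2 to 341 CPM in high. Markers of alpha cells, which a MATa culture should lack, summed to 80.5 to 107 CPM in the low libraries used, 51.3 and 114 CPM in those left out and 77.3 to 125 CPM in high, mostly from SAG1. Within the 5 libraries of a group no pair was a duplicate.

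In late mitosis the type II myosin Myo1, its light chains Mlc1 and Mlc2 and the IQGAP protein Iqg1 form a ring with actin filaments. These filaments are made by formins such as Bni1. The ring closes after the mitotic exit network fires. Chitin synthase Chs2 then lays down the primary septum behind it, with Inn1, Cyk3 and the F-BAR protein Hof1 linking ring, membrane and septum. In budding yeast many genes needed for mitosis are transcribed in a wave before division, driven by the transcription factors Mcm1 and Fkh2.

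Of the 10 genes, 6 were lower in low than in high, none was higher and 4 did not pass the test. The 6 were HOF1, CHS2, IQG1, CYK3, MYO1 and BNR1, each with a p-value under 0.05 by the quasi-likelihood test of edgeR after Benjamini-Hochberg adjustment across all 6492 genes tested, termed called below. Over all genes 4.33% were called lower in low. The median log2 fold change of the 10 genes, low over high, was -1.34, beside -0.02 over all genes tested. All 3 low libraries lay below all 5 high libraries for 7 of the 10 genes, a pattern that 10.7% of all genes showed. With the left-out libraries added, all 5 low libraries lay below all 5 high libraries for HOF1, CHS2, IQG1, CYK3 and MYO1, so for 5 of the 10, against 6.15% of all genes. The count of 6 came from a fit without pairing. With low and high libraries paired by the rest of their name, 4 of the 10 genes were called lower, against 1.22% of all genes. A bulk library cannot tell fewer cells of a type from less of an mRNA per cell.

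**Figure D1:**
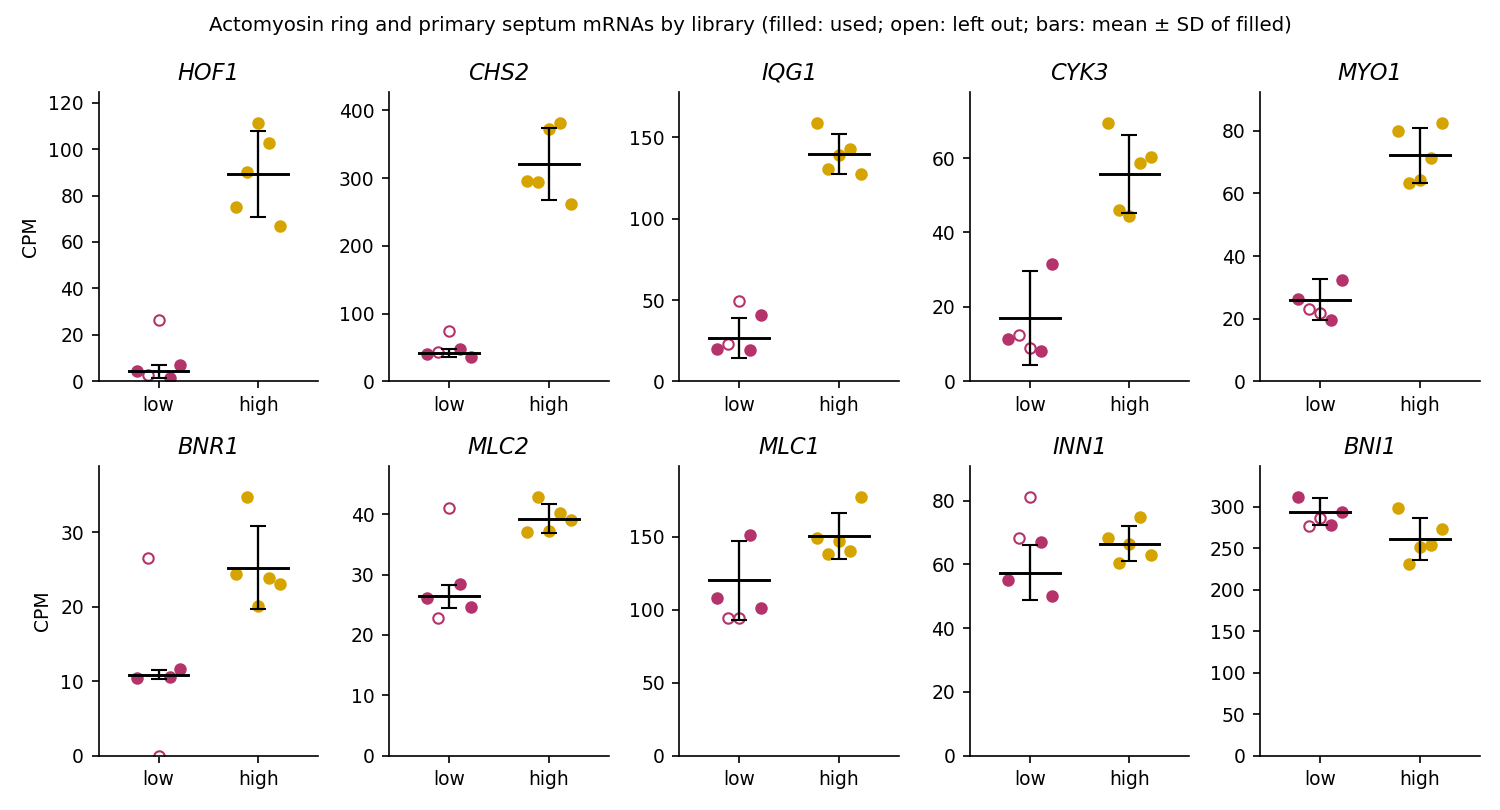
Normalized level in CPM (linear axis from 0) of each of the 10 genes in every library, with low left of high; filled points are libraries used, open points the 2 left out, and bars the mean ± SD of the filled points (n = 3 low, n = 5 high). HOF1, CHS2, IQG1, CYK3 and MYO1 show no overlap between the 5 low and the 5 high points, while BNI1 and INN1 overlap.

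The upstream sequences of 3 members are shown because they carry GTAAACA, the core bound by forkhead factors such as Fkh2. Each was read from the R64 reference, on the strand of its gene, within 500 bases before the start codon. Capitals mark GTAAACA and, in HOF1 and MYO1, the neighbouring Mcm1 core, CC and GG with any 6 bases between them.
HOF1, chrXIII:335074-335112, plus strand: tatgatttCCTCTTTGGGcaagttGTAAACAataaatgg
MYO1, chrVIII:151470-151509, plus strand: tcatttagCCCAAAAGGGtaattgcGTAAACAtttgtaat
IQG1, chrXVI:95264-95286, minus strand: aggaaagtGTAAACAttacaaat

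The forkhead core lay 200 to 194 bases before the start codon of HOF1, 171 to 165 bases before that of MYO1 and 169 to 163 bases before that of IQG1. Both strands were searched, and GTAAACA occurred in the windows of 3 of the 10 genes and of 10.3% of 5978 protein-coding genes. All 3 genes were called lower in low, but CHS2, CYK3 and BNR1, also called, had no match in this window. The Mcm1 core occurred in 5 of 10 windows (49.2% of all). In HOF1 it ended 6 bases, and in MYO1 7 bases, before the forkhead core. A forkhead core with an Mcm1 core at most 20 bases away, a combination looked for after the single matches were seen, was found in 1.02% of all windows. The MBF core ACGCGT occurred in BNR1 alone (5.4% of all) and the SBF core CGCGAAA in IQG1 alone (5.8% of all). A match is a description of letters and not of binding.

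HOF1 (YMR032W, chrXIII:335298-337307, plus strand) encodes the F-BAR protein that moves from the septins to the ring and couples it to the septum. Its level was 4.57, 1.39 and 6.90 CPM in the low libraries L1_2609, L2_2709 and L_2909, against 74.85, 89.9, 111, 103 and 66.9 CPM in the high libraries H1_2609, H2_2609, H1_2709, H2_2709 and H_2909. Every low library was below every high library by a wide margin. The mean of 4.285 ± 2.77 CPM in low stood against 89.1 ± 18.5 CPM in high (SD, n = 3 and n = 5). The log2 fold change was -4.37 (SE 0.48, 95% interval -5.45 to -3.30, adjusted p = 0.00164 by edgeR), the lowest among the 10 genes. These low values rest on few reads, 105 counts in L1_2609, 29 in L2_2709 and 135 in L_2909, against 1650 to 2715 counts in high. The 5th percentile of the non-zero counts in these low libraries was 48, 85 and 55. The SE and interval may therefore understate the uncertainty of HOF1 in low. The left-out libraries were unlike each other, with 2.755 CPM in L2_2609 and 26.6 CPM in L1_2709. With both added the log2 fold change was -3.41 (SE 0.66, adjusted p = 0.0151 by edgeR).

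CHS2 (YBR038W, chrII:311898-314789, plus strand) encodes the chitin synthase of the primary septum. Low libraries had 40.6, 47.9 and 36.4 CPM, against 295, 294, 373, 381 and 261 CPM in high. Nothing overlapped, and the spread in each group was small beside the gap. CHS2 averaged 41.6 ± 5.85 CPM in low and 321 ± 53.2 CPM in high (SD, n = 3 and n = 5), a log2 fold change of -2.94 (SE 0.18, 95% interval -3.35 to -2.54, adjusted p = 0.00014 by edgeR). The left-out L2_2609 had 43.0 CPM and L1_2709 had 74.5 CPM, still below every high library.

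IQG1 (YPL242C, chrXVI:90622-95109, minus strand) encodes the IQGAP scaffold that brings actin to the ring. Its values were 19.9, 19.2 and 40.6 CPM in low and 159, 131, 139, 143 and 128 CPM in high. L_2909 stood above the other low libraries used but far below high. The means were 26.5 ± 12.2 CPM in low and 139.8 ± 12.3 CPM in high (SD, n = 3 and n = 5), with a log2 fold change of -2.39 (SE 0.27, 95% interval -2.99 to -1.79, adjusted p = 0.00165 by edgeR). The libraries left out had 23.1 CPM (L2_2609) and 49.3 CPM (L1_2709).

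MYO1 (YHR023W, chrVIII:151666-157452, plus strand), the gene of the ring's myosin heavy chain, had 26.3, 19.6 and 32.4 CPM in low and 79.9, 63.3, 64.1, 71.2 and 82.4 CPM in high. Both left-out libraries, at 23.2 and 21.97 CPM, fell inside the range of the low libraries used. Means were 26.1 ± 6.41 CPM in low and 72.2 ± 8.795 CPM in high (SD, n = 3 and n = 5). The log2 fold change of -1.46 (SE 0.20, 95% interval -1.91 to -1.01, adjusted p = 0.00503 by edgeR) was smaller in size than that of HOF1.

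CYK3 (YDL117W, chrIV:248581-251238, plus strand) encodes an SH3 protein that stimulates septum synthesis alongside the ring. Low libraries had 11.4, 8.09 and 31.6 CPM, and high libraries had 69.4, 46.0, 44.5, 58.6 and 60.3 CPM. L_2909 was the exception in low, while L2_2609 and L1_2709, with 12.4 and 8.85 CPM, were like the other 2. CYK3 averaged 17.0 ± 12.7 CPM in low and 55.8 ± 10.4 CPM in high (SD, n = 3 and n = 5), with a log2 fold change of -1.71 (SE 0.42, 95% interval -2.65 to -0.76, adjusted p = 0.0492 by edgeR). This call was close to the threshold. With paired replicates, that is, the shared name code as a replicate block, the log2 fold change was -2.13 with an adjusted p of 0.0571, and edgeR gave adjusted p-values of 0.0733 to 0.126 when any library other than L_2909 was left out. Without L_2909 the log2 fold change was -2.51 (adjusted p = 0.00284 by edgeR).

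BNR1 (YIL159W, chrIX:41825-45952, plus strand) encodes a formin that makes actin cables at the bud neck. It had 10.4, 10.6 and 11.6 CPM in low, against 24.45, 34.7, 20.1, 23.9 and 23.1 CPM in high. The groups used did not overlap. Averages of 10.9 ± 0.626 CPM in low and 25.2 ± 5.55 CPM in high (SD, n = 3 and n = 5) gave a log2 fold change of -1.21 (SE 0.24, 95% interval -1.75 to -0.67, adjusted p = 0.0223 by edgeR). The left-out libraries pulled in opposite directions, with 26.5 CPM in L2_2609, inside the high range, and 0 counts in L1_2709. By counting error alone, a count of 0 there allows up to 3 counts, or 0.194 CPM. The 5th percentile of the non-zero counts in L1_2709 was 105, so the true limit may be higher. In all 10 libraries the log2 fold change was -1.09 (SE 0.82, adjusted p = 0.624 by edgeR) and BNR1 was not called. Pairing by name code in the 8 libraries gave -1.13 (adjusted p = 0.198 by edgeR), and leaving out H1_2709 or H2_2709 gave adjusted p-values of 0.0517 and 0.0671.

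BNI1 (YNL271C, chrXIV:129522-135383, minus strand) encodes the other formin, which works at the bud tip and moves to the neck for cytokinesis. Its level was 311, 278 and 293 CPM in low and 298, 231, 251.5, 254 and 273 CPM in high. The ranges overlapped, and the left-out libraries had 276 and 287 CPM. It was the only one of the 10 genes with a positive log2 fold change, 0.17 (SE 0.12, 95% interval -0.09 to 0.44, adjusted p = 0.519 by edgeR).

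MLC1 (YGL106W, chrVII:306560-307009, plus strand) encodes a light chain shared by Myo1, Iqg1 and the transport myosin Myo2. Low libraries had 108, 151 and 101 CPM and high libraries 149, 138, 147, 140.1 and 177 CPM. L2_2709 lay among the high libraries, and the other low libraries, with 94.46 and 94.15 CPM in those left out, lay below them. The log2 fold change was -0.32 (SE 0.16, 95% interval -0.68 to 0.03, adjusted p = 0.335 by edgeR).

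MLC2 (YPR188C, chrXVI:911988-912479, minus strand), the gene of the regulatory light chain of Myo1, had 26.1, 28.45 and 24.6 CPM in low and 37.1, 42.8, 37.3, 40.2 and 39.0 CPM in high. The 3 low libraries used were all below high, and L2_2609 was too with 22.8 CPM, but L1_2709 had 41.0 CPM. Its log2 fold change of -0.57 (SE 0.15, 95% interval -0.91 to -0.24) had an adjusted p of 0.0612 by edgeR. DESeq2, the tool of the study, gave -0.56 with an adjusted p of 0.00173, and called 7 of the 10 genes lower where it called 7.21% of all genes.

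INN1 (YNL152W, chrXIV:346313-347542, plus strand) encodes the C2-domain protein that joins ring closure to membrane ingression and activates Chs2. It had 55.2, 66.9 and 49.95 CPM in low, against 68.1, 60.3, 66.25, 74.7 and 63.1 CPM in high. The groups overlapped, and the libraries left out, at 68.3 and 81.0 CPM, were the highest in low. The log2 fold change was -0.21 (SE 0.14, 95% interval -0.53 to 0.11, adjusted p = 0.508 by edgeR).

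**Figure D2:**
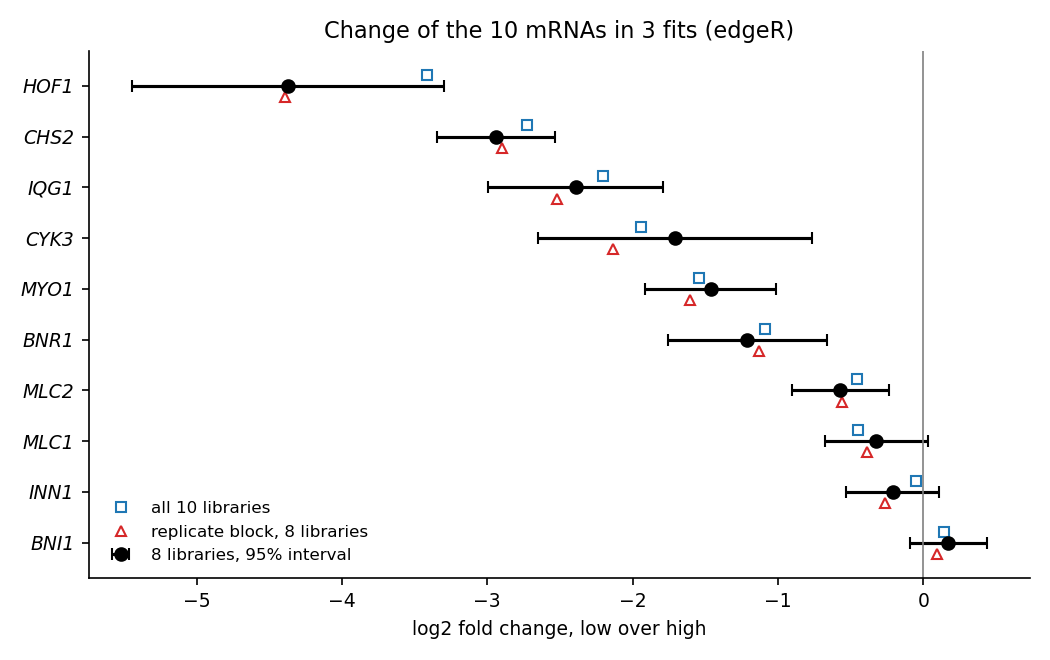
Log2 fold change, low over high, of each gene in edgeR fits of 8 libraries (black, with 95% interval), of all 10 libraries (squares) and of 8 libraries with the replicate block (triangles). The genes run from HOF1 at -4.37 to BNI1 at 0.17, and every gene keeps its sign in the 3 fits.

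HOF1, IQG1, MYO1 and CHS2 were called in all 3 of these fits. The fit of all 10 libraries called 5 of the 10 genes lower, where 2.84% of all genes were, and the fit with paired replicates called these 4, where 1.22% of all genes were. Only 3 pairs of libraries inform the paired fit, because the low partners of H2_2609 and H1_2709 are those left out. The name endings group the libraries in sets, 2 low and 2 high with the ending of L1_2609, 2 of each with that of L1_2709 and 1 of each with that of L_2909. The set means include the left-out libraries. Low was below high in mean CPM within every set for HOF1 (by 22.5-fold, 7.64-fold and 9.70-fold in this order of sets), CHS2 (7.05-fold, 6.16-fold and 7.18-fold) and CYK3 (4.83-fold, 6.09-fold and 1.91-fold). Over the same sets the folds, high over low, were 6.74, 4.12 and 3.15 for IQG1, 2.89, 3.26 and 2.54 for MYO1 and 1.601, 4.14 and 1.99 for BNR1.

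Per unit of gene length, the order of the 10 mRNAs differed between the fractions. In FPKM, MLC1 was the most abundant in both, with a mean of 264 FPKM in low and 328 FPKM in high. CHS2 had rank 5 in low, at 14.3 FPKM, and rank 2 in high, at 109 FPKM. HOF1 had rank 10 in low, at 2.11 FPKM, and rank 6 in high, at 43.6 FPKM. The low order after MLC1 was MLC2 (53.1 FPKM), BNI1 (49.7), INN1 (46.2), CHS2, CYK3 (6.36), IQG1 (5.86), MYO1 (4.47), BNR1 (2.61) and HOF1. Neighbours whose low libraries overlapped were MLC2 with BNI1, BNI1 with INN1, CYK3 with IQG1, IQG1 with MYO1 and BNR1 with HOF1. In high the order was MLC1, CHS2, MLC2 (78.5 FPKM), INN1 (53.1), BNI1 (43.9), HOF1, IQG1 (30.6), CYK3 (20.6), MYO1 (12.3) and BNR1 (6.02). There INN1 overlapped with BNI1, BNI1 with HOF1 and HOF1 with IQG1, and the libraries of other neighbours did not overlap.

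**Figure D3:**
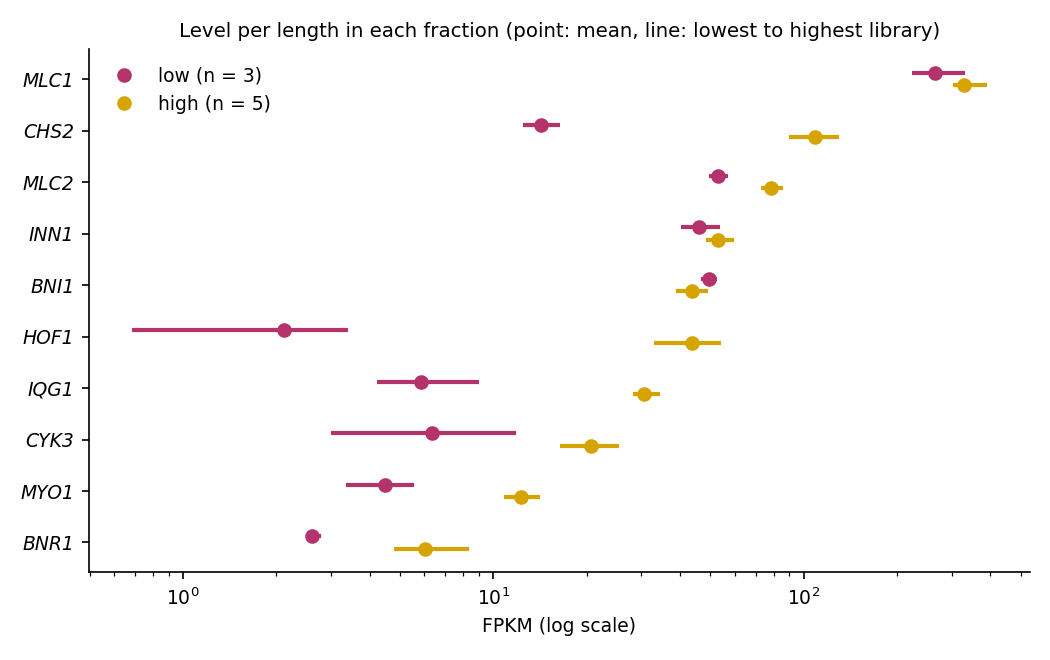
Level in FPKM (log scale) of the 10 mRNAs, with low above high for each gene; points are means and lines run from the lowest to the highest library (n = 3 low, n = 5 high). HOF1 has rank 10 in low and rank 6 in high, and CHS2 rank 5 in low and rank 2 in high.

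Pairs of genes with related roles were compared by the ratio of their FPKM within each library, which asks whether partners differed by the same factor. The 5 ratios were tested by exact two-sided permutation over the 56 splits of 8 libraries, whose smallest p is 0.0357, with Benjamini-Hochberg adjustment over the 5. This test does not use the pairing by name code, and with 3 complete pairs an exact test within pairs could not go below p = 0.25. The genes to compare were chosen with earlier results of these data known, which the adjustment over the 5 ratios does not cover. For the formins, BNI1 over BNR1 was 21.0, 18.4 and 17.8 in low, against 8.58, 4.68, 8.81, 7.49 and 8.34 in high. All low ratios used were above all high ratios, a difference of 1.36 on the log2 scale (exact permutation p = 0.0357, adjusted 0.0446). The left-out L2_2609 had a ratio of 7.34, within the high range, and with it the log2 difference was 1.02 (adjusted exact permutation p = 0.0992).

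INN1 over CYK3, both activators of septum synthesis, was 10.4, 17.9 and 3.42 in low and 2.12, 2.83, 3.21, 2.755 and 2.26 in high. L_2909 was only just above the highest high library. The log2 difference of 1.72 had an exact permutation p of 0.0357 (adjusted 0.0446), and with all 10 libraries it was 2.06 (adjusted 0.0198). HOF1 over MYO1 was 0.4997, 0.204 and 0.613 in low, against 2.70, 4.09, 4.99, 4.15 and 2.34 in high. HOF1 was thus below MYO1 per length in the low libraries used and above it in high, a log2 difference of -3.15 (exact permutation p = 0.0357, adjusted 0.0446). L1_2709, left out, had a ratio of 3.49, as in high.

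CHS2 was set against CHS3, the chitin synthase that makes most cell wall and bud neck chitin. The ratio was 1.32, 1.44 and 0.707 in low and 4.37, 3.29, 5.83, 5.88 and 4.13 in high. It did not overlap, also with 0.869 and 1.48 in the left-out libraries, and the log2 difference was -2.06 (exact permutation p = 0.0357, adjusted 0.0446). CHS3 itself was called lower, with a log2 fold change of -0.85 (SE 0.21, adjusted p = 0.0473 by edgeR), but not in the paired fit (adjusted p = 0.184). CHS2 thus differed more between the fractions than CHS3 did. The light chain ratio MLC1 over MLC2 was 4.51, 5.81 and 4.51 in low and 4.39, 3.52, 4.315, 3.81 and 4.965 in high, and its log2 difference of 0.23 did not pass (exact permutation p = 0.179).

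**Figure D4:**
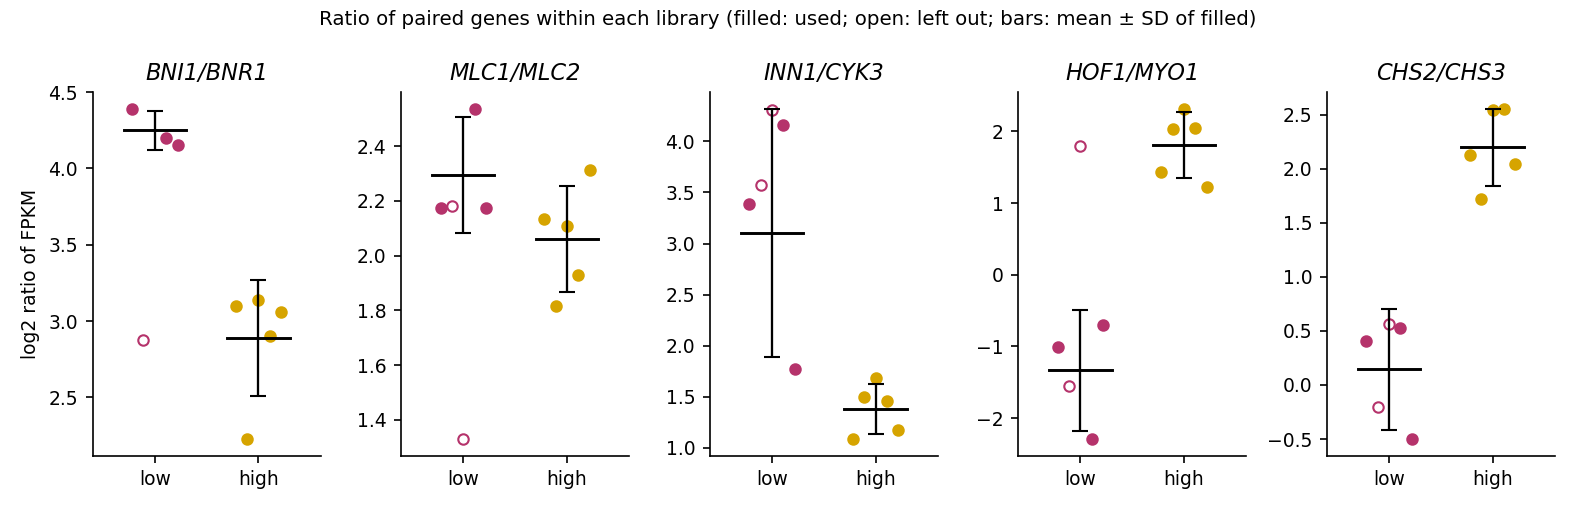
Log2 ratio of FPKM of 2 genes within each library, low left of high (filled: used, open: left out, bars: mean ± SD of the filled points, n = 3 low and n = 5 high). Low and high separate for every ratio but MLC1/MLC2 among the filled points, and L1_2709 has no BNI1/BNR1 point because BNR1 has 0 counts there.

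Related genes were read in lists, each by its counts beside the 4.33% of all genes called lower and the median of -0.02 over all genes. Among 21 genes of actin, profilin and formin cofactors, 2 were called lower and none higher, with a median log2 fold change of -0.25. TPM2, a minor tropomyosin of actin cables, had -0.80 (SE 0.16, adjusted p = 0.0234 by edgeR), and BUD14, which in budding yeast restrains Bnr1, had -0.75 (SE 0.15, adjusted p = 0.0223). ACT1, the actin gene, had 1787 ± 125.5 CPM in low and 2259 ± 151 CPM in high (SD, n = 3 and n = 5) and was not called (adjusted p = 0.21 by edgeR). The paired fit called none of this list, nor of the next.

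Among 5 other genes of myosins and light chains, CMD1, the calmodulin gene, was the only one called (log2 fold change -0.55, SE 0.12, adjusted p = 0.032 by edgeR), and the list median was -0.41.

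Other chitin and septal glucan genes numbered 14, of which 3 were called lower and none higher, with a median of -0.465. CRH1, a transglycosylase that links chitin to glucan, had 50.9, 47.2 and 44.8 CPM in low, against 161, 297, 193.5, 289.7 and 208 CPM in high. The left-out L2_2609 and L1_2709 had 61.98 and 8.66 CPM. The log2 fold change was -2.27 (SE 0.23, adjusted p = 0.00102 by edgeR), and it was the only call of the list left in the paired fit (adjusted p = 0.00537). GFA1, the enzyme that commits sugar to chitin precursors, had -1.11 (SE 0.19, adjusted p = 0.011), and CHS3 is given above. In all 10 libraries CHS3 was not called (adjusted p = 0.0668 by edgeR), and FKS1, the glucan synthase gene, was (log2 fold change -1.29, adjusted p = 0.0153).

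Of 14 other bud neck genes of cytokinesis, 5 were called lower and none higher, with a median of -0.62. BUD4, an anillin-like protein of the neck, had a log2 fold change of -2.59 (SE 0.19, adjusted p = 0.000267 by edgeR) and its partner BUD3 had -1.60 (SE 0.29, adjusted p = 0.0169). NBA1 and AIM44, which mark old division sites, had -1.77 (SE 0.22, adjusted p = 0.00322) and -1.66 (SE 0.30, adjusted p = 0.0155). FIR1 was the remaining call, and was lost in all 10 libraries (adjusted p = 0.138). In the paired fit BUD4, NBA1 and AIM44 were called, but not BUD3 (adjusted p = 0.0696) or FIR1 (0.148).

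Of 10 genes of the mitotic exit network, its regulators and polo kinase, 6 were called lower and none higher, with a median of -1.34. DBF2, the kinase that in budding yeast phosphorylates ring and septum proteins, averaged 32.3 ± 12.3 CPM in low and 261 ± 30.8 CPM in high (SD, n = 3 and n = 5), a log2 fold change of -3.01 (SE 0.26, adjusted p = 0.000497 by edgeR). Its activator MOB1 had -0.94 (SE 0.13, adjusted p = 0.00506), the phosphatase gene CDC14 had -1.16 (SE 0.16, adjusted p = 0.00529) and the polo kinase gene CDC5 had -2.79 (SE 0.19, adjusted p = 0.000184). TEM1 and DBF20 were the others. In the paired fit DBF2, CDC5 and MOB1 were called, but not CDC14 (adjusted p = 0.0636), TEM1 (0.0571) or DBF20 (0.103).

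Cell cycle stage was read from markers. Of 9 markers of G2 and M phase cells, 9 were called lower in low, with a median of -2.66, and 7 in the paired fit, without CLB2 (adjusted p = 0.0898) and CDC20 (0.0788). They share CDC5 and BUD4 with the lists above. Their summed level was 126 to 244 CPM in the low libraries used, 191 and 254 CPM in those left out and 832 to 1209 CPM in high, without overlap. KIN3, a mitotic kinase gene, had a log2 fold change of -2.66 (SE 0.24, adjusted p = 0.000641 by edgeR). SWI5 had 8.28 ± 3.43 CPM in low and 132.5 ± 33.4 CPM in high (SD, n = 3 and n = 5), and CLB2, the mitotic cyclin, was at 0 in L2_2709 and at most 4.04 CPM in the other low libraries used, with 0 in L2_2609 and 7.88 CPM in L1_2709. No G2 and M marker was at 0 in all 3 of these libraries. The part of these markers' difference in the levels of the ring and septum genes was not tested.

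Of 8 markers of late G1 cells, 1 was called lower, CLN2 (-2.58, SE 0.34, adjusted p = 0.00435 by edgeR, and 0.095 in all 10 libraries), with a list median of -1.38 and sums of 48.9 to 93.3 CPM in the low libraries used, 71.3 and 74.3 CPM in those left out and 85.0 to 206 CPM in high. Of 10 markers of early G1 daughter cells, 3 were called higher and 1 lower, with a median of 0.21. The chitinase gene CTS1, whose product opens the septum after division, had 1493 ± 178 CPM in low and 282 ± 43.3 CPM in high (SD, n = 3 and n = 5), a log2 fold change of 2.41 (SE 0.16, adjusted p = 0.00014), with 1179 and 1002 CPM in the left-out L2_2609 and L1_2709. DSE2 had 2.50 (SE 0.24, adjusted p = 0.000753) and DSE1 2.13 (SE 0.27, adjusted p = 0.00322), while EGT2 had -1.79 (SE 0.30, adjusted p = 0.0109). The summed level of this list was 2447 to 3043 CPM in the low libraries used, 1952 and 2421 CPM in those left out and 885.5 to 1442 CPM in high. Most of the sum in low came from CTS1, DSE2 and DSE1, and the markers not called went in both directions. None of the 4 alpha cell markers was called in either direction.

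**Figure D5:**
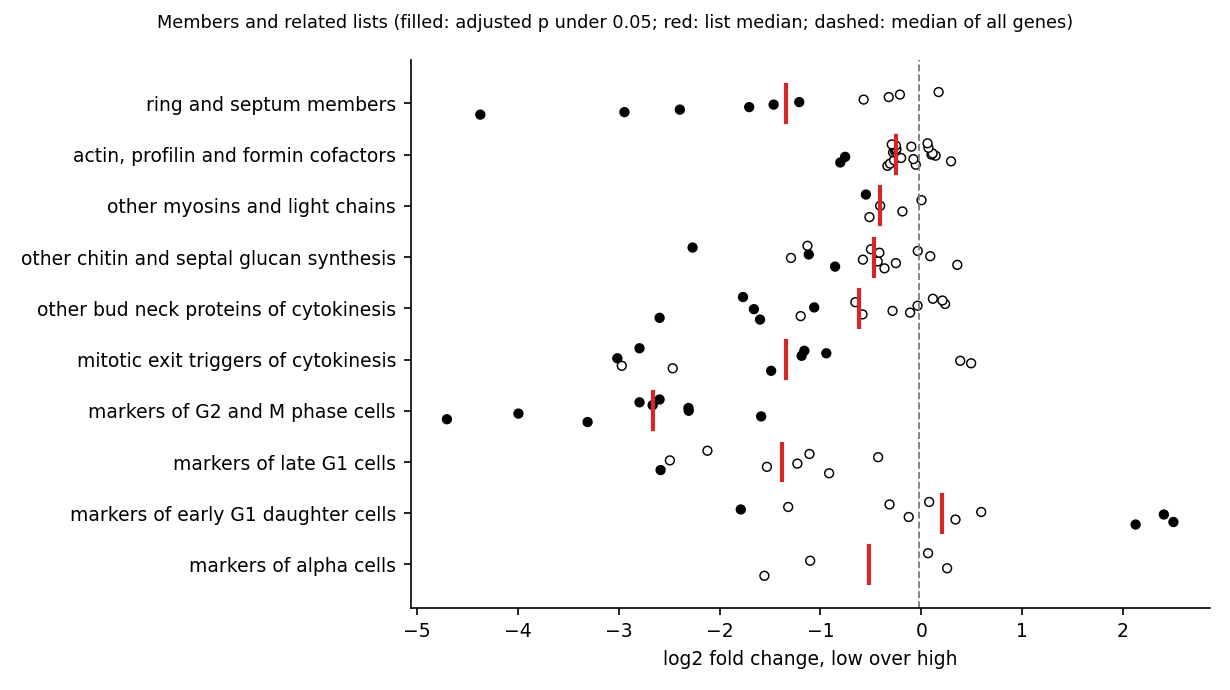
Log2 fold change, low over high, of the 10 genes and of the genes of each related list (filled: adjusted p under 0.05 by edgeR, open: not called), with the list median in red and the median of all genes tested dashed. The ring and septum genes have a median of -1.34, the mitotic exit genes of -1.34 and the G2 and M markers of -2.66, and the actin cofactors of -0.25, beside -0.02 over all genes.

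Across the 10 libraries, the genes most like each member were found by Pearson's r of log2(CPM + 1) among 5449 genes with a mean of at least 10 CPM. These points share the difference between the fractions and the lower complexity of low, so r is a description. HOF1 was most like HST3 (r = 0.994), FRK1 (0.990) and YBR138C (0.984), and IQG1 was most like YCG1, a condensin subunit (0.987), FRK1 (0.986) and YBR138C (0.981). CHS2 was most like TUB2, the beta-tubulin gene (0.993), PSY4 (0.990) and the mitotic kinesin gene CIN8 (0.988). MYO1 was most like MOB1 (0.978), CYK3 (0.970) and PUN1 (0.965), and CYK3 in turn was most like MYO1, GEA1 (0.968) and MNT2 (0.955).

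BNR1 followed the kinesin gene KAR3 (r = 0.991 over 10 libraries), YOR050C (0.980) and SLK19 (0.979), and had r = 0.227 with HOF1. These values rest on the left-out libraries, where BNR1 had 0 counts (L1_2709) and 26.5 CPM (L2_2609). Over the 8 libraries used, an alternative chosen after these values were seen, BNR1 had r = 0.979 with KAR3, 0.919 with YOR050C, 0.870 with SLK19 and 0.914 with HOF1. MLC1 was most like MDM38 (0.955), PDX3 (0.946) and YLL066C (0.944), and MLC2 was most like YNR021W (0.950), CLA4 (0.923) and CDC12 (0.921). The nearest genes were less close for BNI1, with PIG2 (0.925), TKL2 (0.912) and EIS1 (0.905), and for INN1, with VAM7 (0.891), MST28 (0.883) and AIM11 (0.860). Among the members themselves HOF1 and IQG1 had r = 0.975, HOF1 and CHS2 0.945, and INN1 had between -0.358 (BNR1, 0.471 over the 8 libraries used) and 0.506 (MLC2) with the other 9 genes.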

How the data were processed

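Poly-T-selected RNA of the sorted subpopulations was sequenced as paired ends by the authors' provider. The authors mapped reads with HISAT2 to the genome and annotation of Ensembl release 75 and deposited raw counts per gene and FPKM values, which scale these counts by gene length and by a library size that differs from the library total by a factor of 0.906 to 1.03. The counting tool, its use of strand and a build name are not given in the sources used here; all 10 genes have the same coordinates in the R64 reference, and none overlaps another gene.

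Counts of 8 libraries, those used in the study, were compared as low over high with edgeR 4.0.16 (R 4.3.3), using filterByExpr, TMM and the quasi-likelihood test without a covariate. P-values were adjusted over 6492 genes, with a threshold of 0.05. CPM used TMM factors of all 10 libraries, and SE is the log2 fold change over the root of F. FPKM ratios of gene pairs were tested by exact permutation. Reads carry no molecular identifiers, so a limit for a count of 0 covers counting error only. The series gives the libraries as biological replicates; the labels do not say which cultures they came from, and p-values measure the spread between libraries.

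The members, gene lists, pairs and motifs were chosen with earlier results of these data known. The text names all members, up to 4 called genes a list by smallest p, the second gene of each pair and the 3 genes most like each member; ACT1, SAG1, SWI5, CLB2, CDC20, FKS1, FIR1, TEM1 and DBF20 were added to describe their lists. All 108 list entries (105 different genes) were matched, 4 by synonym. Alternatives were other filters, scalings, DESeq2 1.42.0, limma 3.58.1 (voom, log2(FPKM + 1) and log2(FPKM + 0.1)), blocks, all 10 libraries and each library left out. The shared name codes were treated as pairs because deviations from the group means correlated in each of the 3 pairs within the 8 libraries (r = 0.276, 0.105 and 0.306 over 4346 genes), over the limit of 0.1, by the second pair barely. In all 10 libraries r was 0.391, 0.603, 0.111, 0.021 and 0.395, with 0.021 under the limit. Low and high libraries with different codes were not compared in this way, so r cannot show that the codes mark pairs. The fits were tested on simulated counts. Flow cytometry and microscopy were not analysed here, and some genes, 1 list and 1 motif are not reported here.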

Additional observations from a re-analysis of the deposited data

Results flagged for a closer look

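Among the 20 sets of 5 libraries formed by the 10 genes and the groups, 4 held a library whose gap to its nearest neighbour was over 0.710 of the range, the critical value of Dixon's test for 5 samples. Chance flags about 1 in 20 such sets. HOF1 had 26.6 CPM in the left-out low library L1_2709, highest of the low libraries, with a gap of 0.782 of their range. CYK3 had 31.6 CPM in the low library L_2909 (0.815 of the range). MLC1 stood out in both groups, with 151 CPM in the low library L2_2709 (0.763 of the range) and 177 CPM in the high library H_2909 (0.715 of the range). L1_2709 was also the low library with the most genes at 0, 1552, and L_2909 had 995; their part in these values was not tested.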

How the results depend on the processing

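HOF1, IQG1, MYO1 and CHS2 were called lower in low under all 21 alternatives, and no member changed sign in any of them. The 10 genes held 4 to 7 calls. The number of genes called, 335, was 97 with paired replicates (the replicate block) in the 8 libraries, 677 with DESeq2, 160 with counts divided by the 5th percentile of each library, and 113 to 437 when 1 library was left out, with 113 without H1_2709, 119 without H2_2709 and 211 without H2_2609. Without H1_2709 or H2_2709, 4 members were called. CYK3 and BNR1 were the members that lost their calls. CYK3 did so with the block, with a minimum of 1 CPM in 3 libraries (adjusted p = 0.0567), with library totals only (0.0586) and without any library but L_2909. BNR1 did so with all 10 libraries, with either block (in all 10 libraries adjusted p = 0.394), on log2(FPKM + 1) and log2(FPKM + 0.1) (0.0593 and 0.067), with the divided counts (0.0996) and without H1_2709 or H2_2709. MLC2 gained a call with DESeq2 and on both FPKM scales (0.025 and 0.0196). The block changed no other call of a member. The cause of these changes was not tested.

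With 1 of the 8 libraries left out, too few splits remain for any ratio to pass (adjusted exact permutation p = 0.0571 to 0.119 for the 4 ratios that passed, and 0.0571 to 0.476 for MLC1/MLC2). Log2 differences then ran between 1.20 and 1.43 for BNI1/BNR1, 1.195 and 2.39 for INN1/CYK3, -3.46 and -2.67 for HOF1/MYO1 and -2.25 and -1.73 for CHS2/CHS3. The lowest INN1/CYK3 value came without L2_2709 and the highest without L_2909. With all 10 libraries BNI1/BNR1 was 1.02, with L1_2709 dropped because BNR1 has 0 counts there. The low libraries hold fewer detected genes, so low levels of about 10 CPM or less are less certain than the totals show. This holds for HOF1, for BNR1 and for CYK3 in L2_2709.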
